A study of Homo sapiens with 6 samples.

Results

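The genes described here are 10 components of the insulin-like growth factor (IGF) system: the binding proteins IGFBP2 to IGFBP7, the receptors IGF1R and IGF2R, and the insulin receptor substrates IRS1 and IRS2. They were chosen by name, as 10 of the 33117 rows of a gene expression table, and all 10 were among the 13941 genes that passed the filter on low values. The table comes from RNA sequencing of total RNA from WPMY-1, an immortalised line of stromal cells from normal human prostate. The shCAVIN1 group holds 3 libraries from cells that carry a lentiviral short hairpin RNA against CAVIN1, which coats the small membrane pits known as caveolae. The shCtrl group holds 3 libraries from cells that carry the pLKO1 control plasmid. All cells of both groups had been grown in medium with serum, and the labels describe selection with puromycin into stable knockdown clones. The design calls the libraries independent biological replicates without saying whether they came from separate transductions or clones, so a p-value here covers only how much these 6 libraries vary.

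IGF1 and IGF2 are secreted growth factors that act through IGF1R, a receptor tyrosine kinase. IRS1 and IRS2 dock on the activated receptor, or on the insulin receptor, and pass the signal to PI3-kinase and AKT. IGF2R, also the cation-independent mannose 6-phosphate receptor, takes up IGF2 for breakdown and carries enzymes to lysosomes. The binding proteins hold IGFs outside the cell and can lengthen their life or keep them from the receptor, and IGFBP7 binds IGFs only weakly. In the prostate, stromal cells are known as a source of IGFs and binding proteins for the neighbouring epithelium.

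CAVIN1, listed under its older symbol PTRF, was lower in each shCAVIN1 library than in any shCtrl library. It averaged 141 ± 8.33 FPKM in shCAVIN1 and 336 ± 9.78 FPKM in shCtrl (SD, n = 3 each). The difference was -1.25 on the log2 scale, with an SE of 0.0586 and an adjusted p of 2.88e-05 by limma. FPKM scales fragments to transcript length and to the library's mapped total, so levels can be set side by side between genes. The hairpin target is shown because a match elsewhere could touch a gene described here, with capitals for the bases that pair with positions 2 to 8 of the antisense strand.
shCAVIN1 hairpin target: gtggaggttgaggAGGTTATt
Among GENCODE 29 transcripts the whole target of 21 bases was found in 1 gene, CAVIN1. The longest stretch shared with a transcript of the IGF genes was 10 bases, in IGF1R. The 7 capital letters occurred once in the longest IGF2R transcript and in the longest transcript of none of the other 9 genes, against 17.6% of 11492 tested protein-coding genes. Among the genes with the longest transcripts, the class of 7690 bases or more that holds IGF2R, IGF1R, IRS1 and IRS2, the share was 42.7%. Such a match is a description of letters and not a site.

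FPKM sums lay between 758837 and 1043840 per library, and between 12422 and 12605 genes reached an FPKM of 1. The absolute depth is unknown. The lowest values put the relative depth at 0.78, 0.72 and 0.92 in shCAVIN1 replicates 1 to 3 and at 1.1, 1.0 and 0.7 in shCtrl replicates 1 to 3, where shCtrl replicate 2 is the unit. Of 12 stromal markers, 11 reached a mean FPKM of 1, desmin being the exception, and their sum was 979 to 1002 FPKM in shCAVIN1 and 1571 to 1735 FPKM in shCtrl. Within that list TAGLN (346 ± 12.7 FPKM in shCAVIN1, 675 ± 33.3 FPKM in shCtrl) and FN1 (57.8 ± 5.41 FPKM in shCAVIN1, 199 ± 57.8 FPKM in shCtrl) were among those that fell. ACTA2 rose (9.89 ± 0.287 FPKM in shCAVIN1, 4.94 ± 0.289 FPKM in shCtrl), and VIM, PDGFRB and COL1A1 did not pass. Luminal epithelial markers summed to 244 to 259 FPKM in shCAVIN1 and 400 to 433 FPKM in shCtrl, most of it KRT18, with the prostate markers KLK3, KLK2 and TMPRSS2 listed at 0 in all 6 libraries. Sums of the basal, endothelial and neuroendocrine lists stayed under 1.3 FPKM in every library. Of 6 leukocyte markers, CD68 rose (9.25 ± 0.278 FPKM in shCAVIN1, 6.44 ± 0.469 FPKM in shCtrl), CD14 fell (0.508 ± 0.0964 FPKM in shCAVIN1, 1.22 ± 0.184 FPKM in shCtrl), and CD3E was listed at 0 throughout. The part of these differences in the results below was not tested, and in bulk RNA a smaller share of cells with a transcript cannot be told apart from less of it per cell.

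Of the 10 genes, 8 changed at an adjusted p under 0.05, against 55.5% of all tested genes. The 10 genes were chosen with earlier results of these data known, so such shares are a description and not a test. IGFBP3, IGFBP7, IRS2, IGFBP4 and IGFBP6 rose, where 27.3% of tested genes rose, and IGFBP2, IGF1R and IRS1 fell, where 28.2% fell. IGFBP5 and IGF2R did not pass the test. The groups did not overlap for the same 8 genes, against 64.6% of tested genes. IGFBP3, IGFBP7 and IGFBP2 changed at least 2-fold on the log2(FPKM + 0.5) scale, against 5.54% of tested genes. That count depended on the constant added. With 1 in place of 0.5, IGFBP2 was at -0.94 on the log2 scale. With 0.1, IGF1R was at -1.09 and IRS2 at 1.07. With rises and falls in one set the median log2 fold change was 0.02, beside -0.02 over all tested genes, and the median absolute log2 fold change was 0.83, beside 0.27. For single genes, the two-sided permutation p (exact) was 0.1 for these 8, the lowest possible with 3 libraries against 3, 0.2 for IGFBP5 and 0.4 for IGF2R. Rescaling each library to a common sum (TPM) raised the median of all tested genes to 0.09 and left 3412 calls, of which 64.4% were higher, against 49.2% without it. On that scale 3 of the 10 genes rose and 3 fell.

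**Figure D1:**
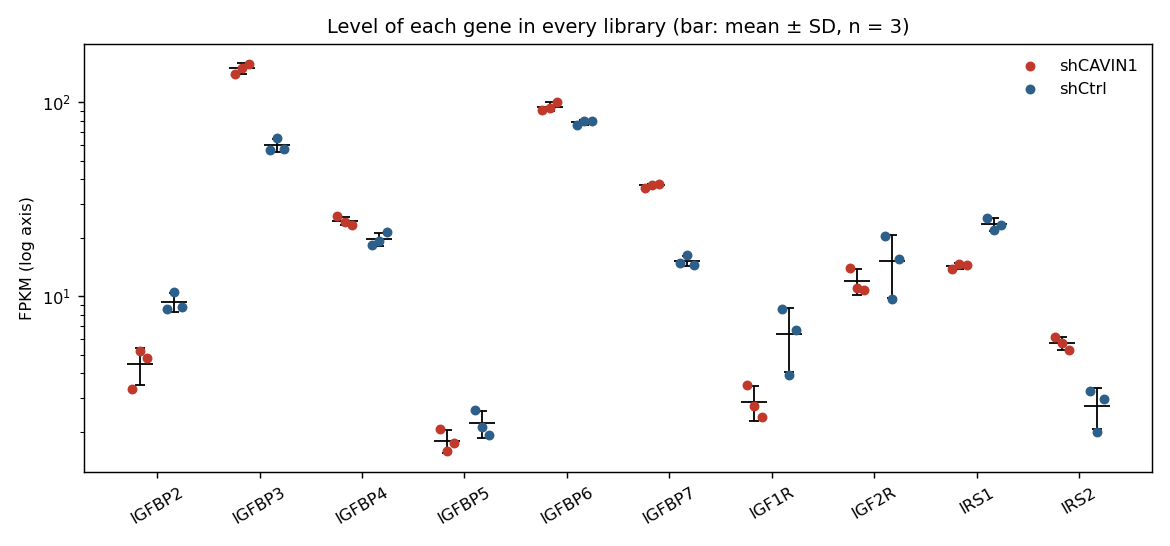
FPKM of each of the 10 genes on a log axis, with 1 point per library (red, shCAVIN1, left; blue, shCtrl, right) and bars for the mean ± SD of 3 libraries. The groups are apart for 8 genes and overlap for IGFBP5 and IGF2R, and the shCtrl points of IGF1R and IGF2R are the most widely spread.

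Among the binding proteins, IGFBP3, the main carrier of IGFs in blood, had the largest rise. It stood at 139, 150.2 and 158 FPKM in shCAVIN1 replicates 1 to 3, against 56.7, 65.3 and 57.6 FPKM in shCtrl replicates 1 to 3. Every shCAVIN1 library was above every shCtrl library by far more than the spread within a group. The difference was 1.31 on the log2 scale (SE 0.0743, adjusted p = 5.58e-05 by limma), and 228 of the 13941 tested genes rose more. In GENCODE 29 (GRCh38), IGFBP3 spans bases 45912245 to 45921874 of chromosome 7, minus strand (ENSG00000146674.14).

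IGFBP7, a secreted protein of the vessel wall and stroma, rose by a similar factor. Its values were 36.3, 37.6 and 37.8 FPKM in shCAVIN1 and 14.9, 16.2 and 14.5 FPKM in shCtrl. The groups were far apart, and the coefficient of variation in shCAVIN1, 2.15%, was the smallest of the 10 genes in that group. The difference was 1.27 on the log2 scale (SE 0.0524, adjusted p = 1.98e-05 by limma). IGFBP7 spans bases 57030773 to 57110385 of chromosome 4, minus strand (ENSG00000163453.11). It overlaps IGFBP7-AS1 on the other strand, which stood at 0.371 ± 0.0735 FPKM in shCAVIN1 and 0.103 ± 0.0441 FPKM in shCtrl and was below the filter. POLR2B, which also overlaps it on the other strand, did not pass the test (51.5 ± 0.597 FPKM in shCAVIN1, 52.6 ± 5.30 FPKM in shCtrl). Whether the authors' counting used the strand is not given in the sources used here, so reads of overlapping genes may be shared.

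IGFBP4 and IGFBP6 rose less, 1.25-fold and 1.20-fold as ratios of mean FPKM. IGFBP4, a binding protein that is cut by the protease PAPPA, was at 25.9, 24.0 and 23.4 FPKM in shCAVIN1 and 18.3, 19.1 and 21.4 FPKM in shCtrl (log2 0.31, SE 0.0701, limma adjusted p = 0.0103). IGFBP6, which prefers IGF2 over IGF1, was at 90.7, 93.3 and 100.4 FPKM in shCAVIN1 and 76.2, 79.8 and 80.1 FPKM in shCtrl (log2 0.27, SE 0.0523, limma adjusted p = 0.00601). For both genes the lowest shCAVIN1 library stood above the highest shCtrl library, by a narrow margin for IGFBP4. IGFBP4 spans bases 40443461 to 40457731 of chromosome 17 and IGFBP6 bases 53097436 to 53102345 of chromosome 12, both plus strand. Both calls were lost under TPM, with log2 fold changes of 0.43 and 0.39 and adjusted p of 0.0612 and 0.136.

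IGFBP2 was the binding protein that fell. It was at 3.33, 5.19 and 4.81 FPKM in shCAVIN1, against 8.61, 10.6 and 8.81 FPKM in shCtrl. The shCAVIN1 libraries were all lower, replicate 1 the lowest. The difference was -1.01 on the log2 scale (SE 0.163, adjusted p = 0.00272 by limma). IGFBP5, a binding protein of bone and muscle, was the least abundant of the 10 in both groups, at 2.06, 1.58 and 1.75 FPKM in shCAVIN1 and 2.58, 2.11 and 1.92 FPKM in shCtrl. These values overlap, and the log2 fold change of -0.23 (SE 0.120) did not pass (limma adjusted p = 0.145). IGFBP2 and IGFBP5 are neighbours on chromosome 2, at 216632828 to 216664436 on the plus strand and 216672105 to 216695525 on the minus strand, 7668 bases apart with their 3′ ends facing. IGFBP1, the neighbour of IGFBP3 at a distance of 18576 bases, did not exceed 0.0447 FPKM in any library.

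Summed over the 6 binding proteins, the level was 298, 312 and 326 FPKM in shCAVIN1 and 177, 193 and 184 FPKM in shCtrl. IGFBP3 made up 46.8% to 48.4% of that sum in shCAVIN1 and 31.3% to 33.8% in shCtrl. IGFBP6 made up 29.9% to 30.8% in shCAVIN1 and 41.3% to 43.5% in shCtrl. The order of these 2 genes therefore differed: IGFBP3 was the most abundant of the 10 genes in shCAVIN1, with IGFBP6 next, and IGFBP6 the most abundant in shCtrl, with IGFBP3 next. In neither group did the libraries of these 2 genes overlap. IGFBP7 came next in shCAVIN1, whereas in shCtrl it overlapped IGF2R and stood below IRS1 and IGFBP4. In shCAVIN1, IGFBP4, IRS1, IGF2R, IRS2, IGFBP2, IGF1R and IGFBP5 followed in that order, with overlapping ranges for IRS1 and IGF2R and for IGFBP2 and IGF1R. In shCtrl, the genes below IGFBP7 by mean were IGFBP2, IGF1R, IRS2 and IGFBP5, the last 2 overlapping. There IGF2R overlapped IGFBP4 and also IGFBP2, its lowest library (9.61 FPKM) standing below the highest of IGFBP2 (10.6 FPKM). IGFBP2 fell to 1.12% to 1.66% of the sum in shCAVIN1, against 4.78% to 5.47% in shCtrl.

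**Figure D2:**
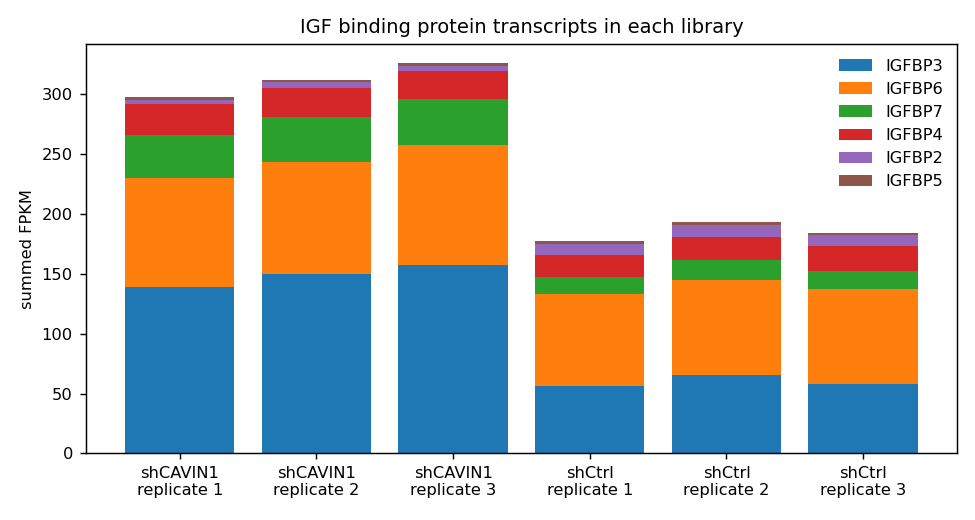
Summed FPKM of the 6 binding proteins in each library, stacked by gene, with shCAVIN1 libraries left and shCtrl libraries right. The stacks reach 298 to 326 FPKM in shCAVIN1 and 177 to 193 FPKM in shCtrl, and most of the difference is in IGFBP3.

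Of the receptors, IGF1R fell and IGF2R did not pass the test. IGF1R was at 3.48, 2.70 and 2.37 FPKM in shCAVIN1 and 8.59, 3.93 and 6.67 FPKM in shCtrl. All shCAVIN1 values were lower, but shCtrl replicate 2 was close to shCAVIN1 replicate 1. The difference was -0.99 on the log2 scale (SE 0.272, adjusted p = 0.0218 by limma), with the widest error of the 10 genes. The call was lost without shCAVIN1 replicate 2 (log2 -0.97, adjusted p = 0.0674), without shCAVIN1 replicate 3 (-0.89, 0.0769), without shCtrl replicate 1 (-0.76, 0.0527) and without shCtrl replicate 3 (-0.94, 0.0757). IGF2R was at 14.003, 11.02 and 10.7 FPKM in shCAVIN1 and 20.4, 9.61 and 15.6 FPKM in shCtrl, where replicate 2 was the lowest of all 6 libraries. Its difference was -0.29 on the log2 scale (SE 0.266, adjusted p = 0.393 by limma), and without shCtrl replicate 2 it was -0.57 and passed (adjusted p = 0.0349).

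The 2 receptors moved together from library to library. The ratio of IGF1R to IGF2R was 0.249, 0.245 and 0.221 in shCAVIN1 and 0.420, 0.409 and 0.429 in shCtrl, so that it was lower in each shCAVIN1 library and its spread was much smaller than that of either gene. IGF1R spans bases 98648539 to 98964530 of chromosome 15 and IGF2R bases 159969099 to 160113507 of chromosome 6, both plus strand. AIRN, antisense to IGF2R, was below the filter (0.102 ± 0.0234 FPKM in shCAVIN1, 0.0877 ± 0.0428 FPKM in shCtrl). Both receptor transcripts are long, 12235 bases for IGF1R and 14044 bases for IGF2R. Tested protein-coding genes were split into 10 equal classes by the length of their longest transcript. In the longest class (7690 bases or more), the median gene deviated from the shCtrl mean by 0.08 in replicate 1, -0.09 in replicate 2 and 0.01 in replicate 3 on the log2 scale. IGF1R deviated by 0.46, -0.58 and 0.12 in the same libraries and IGF2R by 0.48, -0.57 and 0.09, in the same directions and several times as far. Only 20 and 18 of the 1197 genes of that class had a larger SD among shCtrl libraries than these 2. The order of the libraries was not particular to the receptors. IRS2, of the same class, deviated by 0.24, -0.35 and 0.12 in shCtrl replicates 1 to 3, and IRS1 by 0.11, -0.105 and -0.01. LRP1, a pathway gene outside the 10, was at 13.5, 4.24 and 9.51 FPKM in the same libraries. The cause was not tested. The group difference ran with length too. The median log2 fold change was 0.06 in the shortest class, which holds IGFBP6 and IGFBP7, and -0.13 in the longest. With each library's median deviation within 10 length classes of tested genes subtracted, an alternative chosen after seeing the data, IGF1R had a log2 fold change of -0.86 (adjusted p = 0.0190) and IGF2R of -0.15 (adjusted p = 0.578). IRS1 was then at -0.56, against -0.69 in the main fit, and IRS2 at 1.10, against 0.97. IGFBP6 was at 0.22, against 0.27, and IGFBP7 at 1.23, against 1.27.

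**Figure D3:**
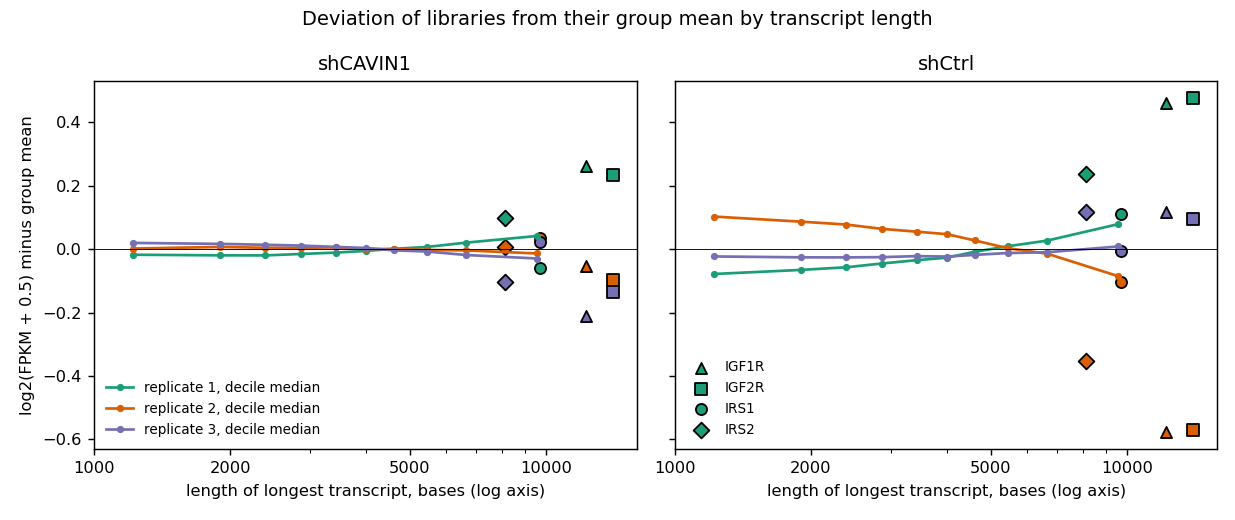
Deviation of each library from the mean of its group, in log2(FPKM + 0.5), against transcript length on a log axis; lines join the medians of 10 length classes of protein-coding genes and symbols show 4 of the described genes. In shCtrl, replicate 2 falls with length and replicate 1 rises, and IGF1R and IGF2R follow the same order at up to 0.58 from the mean. IRS1 and IRS2 follow that order nearer to the mean.

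The insulin receptor substrates changed in opposite directions. IRS1 was at 13.7, 14.7 and 14.6 FPKM in shCAVIN1 and 25.4, 21.8 and 23.4 FPKM in shCtrl (log2 -0.69, SE 0.0642, limma adjusted p = 0.000289). IRS2 was at 6.15, 5.74 and 5.27 FPKM in shCAVIN1 and 3.24, 1.99 and 2.94 FPKM in shCtrl (log2 0.97, SE 0.158, limma adjusted p = 0.00279). Neither gene overlapped between the groups. IRS1 stayed the more abundant of the pair, and the ratio of IRS2 to IRS1 was 0.447, 0.391 and 0.363 in shCAVIN1 and 0.128, 0.0912 and 0.126 in shCtrl. Their sum was 19.8 to 20.4 FPKM in shCAVIN1 and 23.8 to 28.6 FPKM in shCtrl. IRS1 spans bases 226731317 to 226799759 of chromosome 2 and IRS2 bases 109752698 to 109786568 of chromosome 13, both minus strand. Adjacent protein-coding genes that were tested moved in mixed directions. RHBDD1, next to IRS1, fell (log2 -0.43), COL4A1, next to IRS2, rose (0.36), NOA1, next to IGFBP7, fell (-0.31), SPRYD3, next to IGFBP6, rose (0.20) and RPL37A, next to IGFBP2, fell (-0.67). TOP2A, next to IGFBP4, and TNS3, next to IGFBP3, did not pass (0.01 and 0.02). Not all of these neighbours are close: the gap was 18015 bases for SPRYD3, 362394 bases for COL4A1 and 1353279 bases for TNS3.

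**Figure D4:**
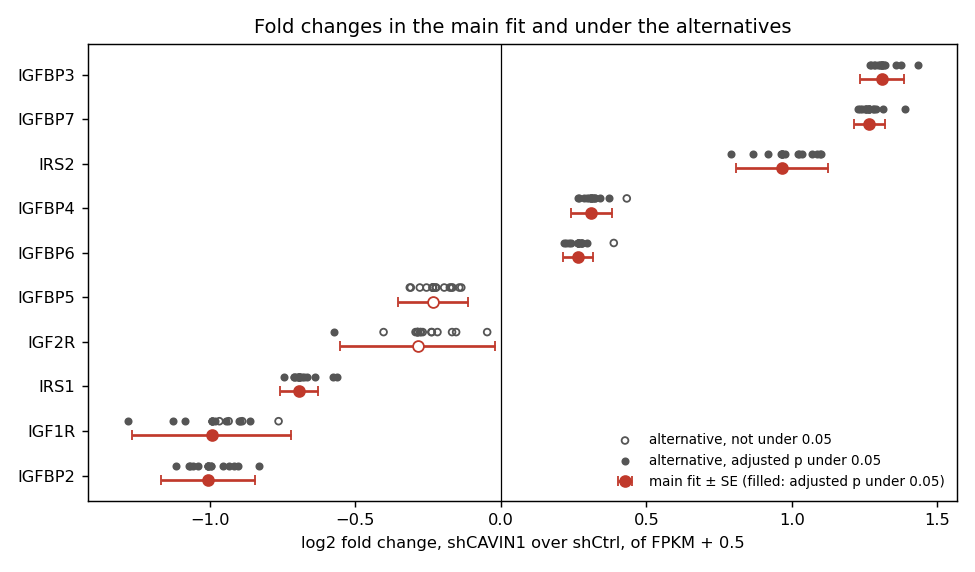
Log2 fold change of FPKM + 0.5, shCAVIN1 over shCtrl, for the 10 genes: red points show the main fit with its SE (filled where the adjusted p is under 0.05) and grey points the 16 alternatives. No gene changes sign, IGFBP3 and IGFBP7 stay above 1.2, and IGF2R ranges from -0.57 to -0.05.

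RefSeq promoter sequences (GRCh38.p14, 250 bases before to 50 after the start) were matched for 9 of the 10 genes, with 11 starts in all. Those of IGFBP3, the largest rise, and of the pair that moved in opposite directions, IRS2 and IRS1, are shown 5′ to 3′. Capitals mark matches on either strand to the GC box GGGCGG, the TEAD motif GGAATG, the FOXO motif TGTTTAC, the insulin response core TGTTTTG, the E-box CACGTG or the TATA box TATAAA. The 3 windows are chr7:45921223-45921522, chr13:109786534-109786833 and chr2:226799771-226800070, all on the minus strand.
IGFBP3: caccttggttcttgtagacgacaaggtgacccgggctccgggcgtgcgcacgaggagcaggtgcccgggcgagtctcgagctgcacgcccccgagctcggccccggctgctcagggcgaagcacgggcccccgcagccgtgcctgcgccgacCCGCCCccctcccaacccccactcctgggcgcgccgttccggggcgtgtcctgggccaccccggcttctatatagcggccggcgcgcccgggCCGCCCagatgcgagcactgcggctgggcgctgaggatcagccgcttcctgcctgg
IRS2: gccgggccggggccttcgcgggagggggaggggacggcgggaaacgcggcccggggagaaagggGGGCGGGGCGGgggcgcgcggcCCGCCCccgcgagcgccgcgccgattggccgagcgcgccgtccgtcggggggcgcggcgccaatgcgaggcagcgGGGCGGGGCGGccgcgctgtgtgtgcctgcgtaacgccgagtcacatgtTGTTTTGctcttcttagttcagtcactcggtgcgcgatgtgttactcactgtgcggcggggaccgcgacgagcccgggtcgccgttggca
IRS1: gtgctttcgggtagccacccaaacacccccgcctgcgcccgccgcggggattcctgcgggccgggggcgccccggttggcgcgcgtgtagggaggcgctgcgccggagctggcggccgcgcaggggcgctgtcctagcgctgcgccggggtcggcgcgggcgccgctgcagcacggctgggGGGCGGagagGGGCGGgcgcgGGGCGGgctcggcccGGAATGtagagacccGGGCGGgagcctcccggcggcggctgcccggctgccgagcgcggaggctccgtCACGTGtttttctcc
GC boxes were the commonest match, with 2 in IGFBP3, 5 in IRS2 (some overlapping by 1 base) and 4 in IRS1, and 44.9% of 34943 promoters of this length held at least 1. IRS2 alone of the 11 starts held TGTTTTG, which 4.93% of promoters hold. GGAATG was found in IRS1, IGFBP5 and IGFBP6 (4907 of the 34943 promoters) and not in the IGFBP3 window. TGTTTAC was found only in IGFBP6 (3.42%), CACGTG in IRS1 and IGF2R (7.23%) and TATAAA in IGFBP4 (11.6%). G and C made up 74.7%, 75.7% and 79.3% of the IGFBP3, IRS2 and IRS1 windows, against a median of 58.7%. These are matches of letters, and no factor was measured here.

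Among 106 other genes of the pathway, in 8 lists, 88 were tested: 22 rose, 29 fell and 37 did not pass, so that 58.0% were called, near the 55.5% of all tested genes, and the median log2 difference was -0.08. The counts of single lists below stand beside 27.3% higher and 28.2% lower over all tested genes. Under TPM, 22 of the 88 were called, beside 3412 of all 13941 tested genes, 2199 of these 3412 higher. The TPM counts of single lists stand beside those numbers. The ligands were nearly absent. IGF1 had 0.00473 FPKM in shCAVIN1 replicate 1 and 0 in replicates 2 and 3, against 0.00621, 0.00375 and 0.0150 FPKM in shCtrl. IGF2 was at 0.0574, 0.116 and 0.122 FPKM in shCAVIN1 and 0.0161, 0.0264 and 0.0399 FPKM in shCtrl, and INS was listed at 0 throughout. All 3 were below the filter, and the adaptor IRS4 was listed at 0 as well. Of the 3 tested genes in the list of ligands and other family genes, the insulin receptor INSR rose to 1.90 ± 0.139 FPKM in shCAVIN1, against 1.28 ± 0.150 FPKM in shCtrl (limma adjusted p = 0.00816), and so did TMEM219, a receptor for IGFBP3 (45.1 ± 0.684 FPKM in shCAVIN1, 36.4 ± 3.56 FPKM in shCtrl, limma adjusted p = 0.0114). Under TPM the TMEM219 call was lost (adjusted p = 0.134), though its log2 difference was larger, 0.43 against 0.31 on deposited FPKM. The ratio of INSR to IGF1R was 0.588, 0.657 and 0.788 in shCAVIN1 and 0.166, 0.286 and 0.195 in shCtrl.

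Of 9 tested proteases of binding proteins and their inhibitors, 1 rose (ADAM9, named after its value was seen) and 5 fell. The ADAM9 call was lost under TPM, with the replicate block and without any 1 library other than shCtrl replicate 2. PAPPA, the metalloprotease that cuts IGFBP4, fell to 0.899 ± 0.0297 FPKM in shCAVIN1, against 2.49 ± 0.435 FPKM in shCtrl (log2 -1.09, limma adjusted p = 0.000451). STC2, an inhibitor of PAPPA, fell to 11.3 ± 0.429 FPKM, against 20.7 ± 0.699 FPKM in shCtrl. The serine protease PRSS23 fell to 32.9 ± 0.246 FPKM, against 144 ± 16.2 FPKM in shCtrl. It was placed in this list, and whether it cuts binding proteins was not tested. PAPPA and its inhibitor STC2 were thus both lower. STC1, of the same list, did not pass (4.81 ± 0.407 FPKM in shCAVIN1, 4.74 ± 0.303 FPKM in shCtrl, limma adjusted p = 0.862). All 3 IGF2 mRNA-binding proteins fell: IGF2BP1 to 2.88 ± 0.228 FPKM in shCAVIN1, against 7.09 ± 1.82 FPKM in shCtrl, IGF2BP3 to 12.2 ± 0.178 FPKM in shCAVIN1, against 18.5 ± 0.232 FPKM in shCtrl, and IGF2BP2 to 22.3 ± 0.256 FPKM in shCAVIN1, against 27.2 ± 1.78 FPKM in shCtrl. Only IGF2BP1 passed under TPM.

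Downstream of the receptors, 3 of 13 docking and adaptor proteins rose and 4 fell. SHC1, which links receptors to the RAS pathway, rose to 107 ± 1.81 FPKM in shCAVIN1, against 51.1 ± 2.51 FPKM in shCtrl. GRB10, an inhibitory adaptor of the insulin and IGF1 receptors, fell to 3.97 ± 0.160 FPKM, against 7.73 ± 0.215 FPKM in shCtrl. GAB1 fell to 2.78 ± 0.127 FPKM, against 4.26 ± 0.556 FPKM in shCtrl, a call lost under TPM. The list had 7 calls, 4 without shCtrl replicate 3 and 2 under TPM. In the core of PI3-kinase, AKT and mTOR, 7 of 20 rose and 4 fell. The kinase AKT1 rose to 229 ± 3.67 FPKM, against 161 ± 4.78 FPKM in shCtrl, and the PI3-kinase subunits PIK3R2 and PIK3R3 rose to 15.9 ± 0.296 and 2.72 ± 0.144 FPKM, against 10.6 ± 0.607 and 1.44 ± 0.0935 FPKM in shCtrl. RICTOR, a subunit of mTOR complex 2 named after its value was seen, fell to 2.73 ± 0.213 FPKM, against 7.59 ± 1.61 FPKM in shCtrl. The 11 calls of this list became 7 without shCAVIN1 replicate 2, shCtrl replicate 1 or shCtrl replicate 2, 6 without shCAVIN1 replicate 3 and 5 under TPM.

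Negative regulators fell in 6 of 15 cases and rose in 1, the phosphatase PTPN2 (27.4 ± 0.407 FPKM in shCAVIN1, 16.2 ± 1.36 FPKM in shCtrl). DDIT4, an inhibitor of mTOR complex 1, and the pseudokinase TRIB3 fell to 28.1 ± 1.46 and 28.7 ± 0.961 FPKM in shCAVIN1, against 42.3 ± 1.28 and 38.5 ± 1.54 FPKM in shCtrl. Under TPM 1 of the 15 was called, PTPN2, and all 6 calls of a fall were lost. Over all tested genes the calls went from 7734 to 3412, of which 2199 were higher, so such a loss is not particular to this list. FOXO factors and their targets split evenly, with 5 of 14 higher and 5 lower, and 3 each under TPM. With the filter at a mean FPKM of 2, only 10 of the list were tested, of which 3 were higher and 3 lower. FOXO3 fell to 7.10 ± 0.323 FPKM, against 11.5 ± 1.34 FPKM in shCtrl, the ubiquitin ligase FBXO32 fell to 0.682 ± 0.0986 FPKM, against 1.602 ± 0.0260 FPKM in shCtrl, and SESN1 rose to 5.49 ± 0.0495 FPKM, against 3.49 ± 0.299 FPKM in shCtrl. FOXO1, named after its value was seen, rose to 1.997 ± 0.218 FPKM, against 0.854 ± 0.287 FPKM in shCtrl (limma adjusted p = 0.00443). In mannose 6-phosphate sorting, the route of IGF2R, 3 of 11 rose and 2 fell, and under TPM 2 were called, both higher. The retromer subunit VPS29 rose to 48.8 ± 1.78 FPKM, against 33.7 ± 3.00 FPKM in shCtrl, and the retromer subunit VPS35 fell to 53.7 ± 0.295 FPKM, against 72.0 ± 6.44 FPKM in shCtrl, a call lost under TPM. The adaptor GGA3 rose 1.30-fold as a ratio of mean FPKM. List medians lay between -0.58 and 0.31, and those of the negative regulators (-0.09) and of mannose 6-phosphate sorting (-0.04) turned positive under TPM.

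**Figure D5:**
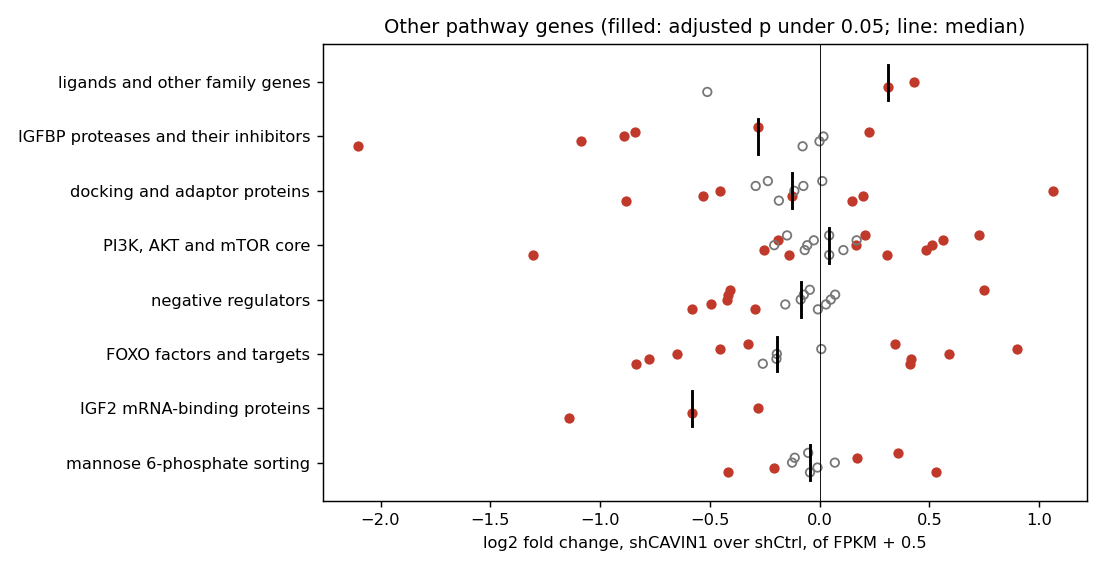
Log2 fold change of FPKM + 0.5, shCAVIN1 over shCtrl, for the 88 tested genes of 8 pathway lists, 1 point per gene, filled red where the adjusted p is under 0.05, with a line at each list's median. Most lists hold rises and falls, and the 3 IGF2 mRNA-binding proteins are all below 0.

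The genes whose pattern over the 6 libraries was closest to that of IGFBP3, by the Euclidean distance of centred log2(FPKM + 0.5) values, were SPRY2 (distance 0.108), HYLS1 (0.126) and SAPCD2 (0.132). For IGFBP7 they were ADAM15 (0.0770), LEPR (0.0849) and PSG5 (0.0942). ADAM15, the closest of all, was at 73.9 ± 1.46 FPKM in shCAVIN1 and 30.6 ± 1.17 FPKM in shCtrl. PSG5 belongs to a family of near-identical genes and is uncertain.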

How the data were processed

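RNA from 3 shCAVIN1 and 3 shCtrl libraries of WPMY-1 cells was measured with a stranded kit for total RNA, per the labels' protocols. The authors deposited FPKM values in 1 table of 6 libraries. According to the submitters' processing notes, reads were handled on GRCh38 with tools that include TopHat2 (given as 2.2.5), TopHat, CASAVA and bcl2fastq 2.17.1.14. The quantifier, its annotation and its strand setting: not given in the sources used here.

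Genes with a mean FPKM of at least 0.5 (13941) were fitted as log2(FPKM + 0.5) by limma 3.58.1 (R 4.3.3, variance trend, group as the only term) and Benjamini-Hochberg adjustment over all of them, after a test on simulated data. Fold changes on this scale understate low genes. Errors of FPKM are SD and those of fold changes SE. Permutation tests were exact. The absolute depth is unknown, so no counting interval is given. Of 164 entries in the lists all were found, 4 by an older symbol.

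The members and lists were chosen with earlier results of these data known. Pathway genes were named by the lowest adjusted p, up to 3 called genes per list, plus the ligands. For the 2 members with the largest change, the 3 tested protein-coding genes at the smallest distance were named, and so were tested neighbours. Alternatives changed the pseudocount (0.1 or 1), the filter (none or 2), the scaling (TPM, median-of-ratios, quantile), the variances, the block or the libraries. A correction for transcript length was added after seeing the data. Positions are from GENCODE 29 and promoters from RefSeq.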

Additional observations from a re-analysis of the deposited data

How the results depend on the processing

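Over 16 alternatives, none of the 10 genes changed sign, and 153 of 160 values stayed on their side of the threshold. The exceptions were IGFBP4 and IGFBP6 under TPM, IGF1R without any of 4 single libraries, and IGF2R, which passed without shCtrl replicate 2. Rescaling to TPM put the median log2 difference of all tested genes at 0.09, against -0.02 without it. It left 3 of the 10 genes higher, 3412 of all tested genes called, 64.4% of them higher against 49.2% of the calls on deposited FPKM, and 22 of the 88 pathway genes called against 51. The cause was not tested. Replicate numbers were not taken to pair the libraries, since same-numbered libraries deviated together at correlations of only -0.03 to 0.09. With the replicate number as a block, 8 of the 10 genes and 7167 of all tested genes were called. The unknown depth limits most the genes at low FPKM.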
